A study of Mus musculus with 22 samples.

Results

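Immediate early genes are switched on within minutes of a stimulus, without new protein synthesis, and 10 of them were followed here in the brains of newborn mice: *Fos*, *Fosb*, *Junb*, *Egr1*, *Egr2*, *Npas4*, *Nr4a1*, *Arc*, *Ier2* and *Btg2*. They were taken by gene name from a list and not by their values, and all 10 were present, out of 55409 genes measured in the PWS-cr series and 55406 in the PWS-IC series. All 10 passed the filter on low counts in both.

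RNA sequencing of whole brain at postnatal day 0 compared 2 mouse models of Prader-Willi syndrome, each with its wild-type littermates. PWS-cr pups are heterozygous for a deletion, inherited from the father, of the critical interval that holds the *Snord116* genes and most of *Ipw*. PWS-IC pups carry a paternally inherited deletion of the imprinting centre, which silences the paternally expressed genes of the interval. The PWS-cr series held 6 PWS-cr and 5 wild-type libraries from 4 litters, and the PWS-IC series 4 PWS-IC and 5 wild-type libraries from 2 litters. Each library is 1 pup, taken on the morning after birth. The PWS-cr line is B6(Cg)-Snord116tm1Uta/J, and the labels give no strain for the pups of either series.

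Total counts per library ran from 45798407 to 62103143. In 2 libraries of the PWS-IC series the transcripts went against the label. By its label 1_3_IC is a PWS-IC female, but *Snrpn*, which this deletion silences, had 18116 counts in it, *Xist* had 64 and *Eif2s3y*, a gene of the Y chromosome, had 3191. By its label 1_7_IC is a wild-type male, and the same genes had 343, 124574 and 9 counts. The genotype and litter comparisons of the members in this series are therefore given as labelled and again without these 2 libraries, which leaves 3 PWS-IC and 4 wild-type pups. In the PWS-IC series sex was hardly separated from genotype, since every PWS-IC pup was labelled female and 4 of 5 wild-type pups male.

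In neurons, calcium entry and growth factor signals reach these genes through kinase cascades that phosphorylate factors already bound at their promoters. CREB binds the cyclic AMP response element (CRE), and serum response factor binds the CArG box. Most of the products are themselves transcription factors: FOS family proteins pair with JUN family proteins to form AP-1, EGR proteins are zinc-finger factors, NPAS4 is a neuron-specific factor that responds to calcium, and NR4A1 is an orphan nuclear receptor. The group is widely used as a record of recent neuronal activity, and birth, handling and stress can also induce it.

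The promoters of 4 members are shown because, with no annotated exon in the window, they hold 2 or more matches to these elements or the full CRE in the 250 bases before a RefSeq transcription start (build GRCm38.p6). *Npas4* also holds 2 partial CREs but is not shown, since its window is all annotated exon. *Fosb* and *Junb* hold 1 partial CRE each. No promoter of *Egr1*, *Arc* or *Ier2* was searched, so whether they hold these elements is not given here. For *Egr2* and *Nr4a1* this start lies inside the annotated gene. *Egr2* has other RefSeq starts. The window nearest its annotated gene start (chr10:67535249-67535498) holds no match to these elements, and chr10:67537316-67537565 holds a CArG box only. Capitals mark the partial CRE TGACG on either strand, the full CRE TGACGTCA, or a CArG box. *Fos* (chr12:85473640-85473889, plus strand) and *Nr4a1* (chr15:101266596-101266845, plus strand) hold 2 and 4 partial CREs. *Egr2* (chr10:67537619-67537868, plus strand) holds a CArG box and 2 partial CREs, and *Btg2* (chr1:134079156-134079405, minus strand) holds the full CRE, within which the partial one matches on both strands.
Fos: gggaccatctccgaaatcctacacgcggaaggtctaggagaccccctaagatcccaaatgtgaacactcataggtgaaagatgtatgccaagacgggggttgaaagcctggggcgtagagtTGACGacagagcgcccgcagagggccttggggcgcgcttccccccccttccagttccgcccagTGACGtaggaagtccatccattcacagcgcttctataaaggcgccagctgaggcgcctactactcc
Egr2: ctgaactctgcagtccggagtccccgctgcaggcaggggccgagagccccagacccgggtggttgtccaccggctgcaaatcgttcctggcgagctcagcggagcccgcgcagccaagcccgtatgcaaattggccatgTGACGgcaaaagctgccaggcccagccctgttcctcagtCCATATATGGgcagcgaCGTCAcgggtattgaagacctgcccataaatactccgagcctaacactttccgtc
Nr4a1: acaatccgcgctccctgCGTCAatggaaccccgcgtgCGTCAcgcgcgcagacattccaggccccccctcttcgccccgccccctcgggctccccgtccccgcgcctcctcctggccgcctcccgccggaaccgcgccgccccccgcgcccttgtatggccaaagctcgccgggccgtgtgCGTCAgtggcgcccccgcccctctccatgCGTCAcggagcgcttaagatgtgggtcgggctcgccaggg
Btg2: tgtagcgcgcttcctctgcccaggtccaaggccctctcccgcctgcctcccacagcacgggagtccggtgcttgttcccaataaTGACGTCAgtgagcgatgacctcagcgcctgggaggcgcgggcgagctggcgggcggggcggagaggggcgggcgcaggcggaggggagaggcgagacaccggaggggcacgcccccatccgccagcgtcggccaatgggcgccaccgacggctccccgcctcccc

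Of 32851 mouse promoters of the same length, 17.8% hold a partial CRE on either strand, 1.55% the full CRE and 1.47% a CArG box. The matches describe the sequence only.

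Levels of different genes were compared in TPM, transcript abundance as the authors scaled it for gene length and depth. Per length, *Btg2*, which encodes an antiproliferative protein of neural progenitors, was the highest member in both series, with 21.4 TPM ± 1.62 (SD, n = 11) in the PWS-cr series and 17.7 ± 2.82 (n = 9) in the PWS-IC series. *Fosb*, the FOS family member that accumulates with repeated stimulation, was the lowest, with 0.655 TPM ± 0.159 and 0.541 ± 0.209. *Fos* itself stood at 5.66 TPM ± 1.26 and 4.82 ± 1.44, eighth of the 10 in both series.

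In the PWS-cr series the order below *Btg2* was *Nr4a1* (16.4 TPM ± 1.5), *Ier2* (13.9 ± 1.65), *Egr1* (13.7 ± 3.38) and *Npas4* (12.9 ± 1.39), of which *Ier2*, *Egr1* and *Npas4* lay within 1 SD of each other. *Junb* (6.62 ± 1.09), *Arc* (6.32 ± 1.14) and *Fos* likewise lay within their spread, and *Egr2* followed at 1.58 ± 0.365. In the PWS-IC series *Ier2*, an early response gene that encodes a nuclear protein, ranked above *Nr4a1* at 17.2 TPM ± 3.88 against 13.1 ± 1.55 over all 9 libraries, with its highest value in 1_3_IC (25.7), and *Npas4* ranked below *Junb* at 6.13 ± 1.66 against 6.39 ± 1.24.

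**Figure D1:**
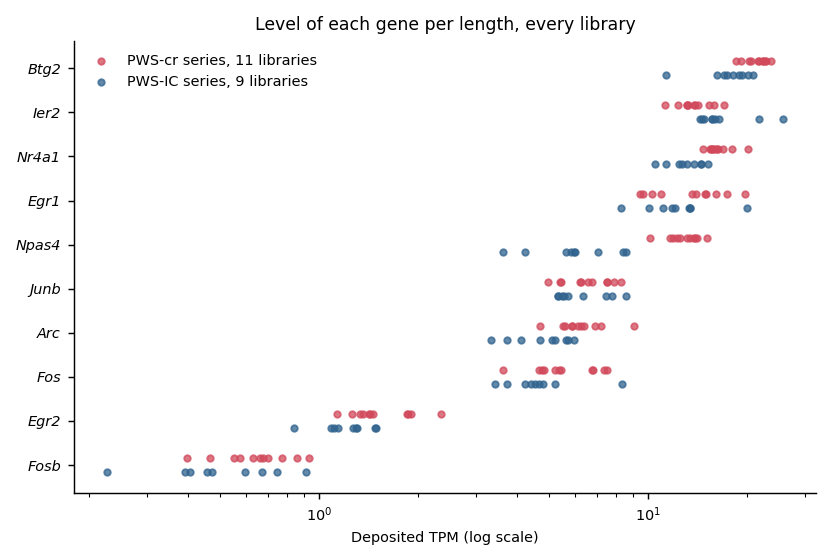
Deposited TPM (log axis) of each gene in every library of the PWS-cr series (red, 11 libraries) and the PWS-IC series (blue, 9 libraries). *Fosb* sits lowest and *Btg2* highest by mean, and *Npas4* is the only member whose points do not overlap between the series.

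The members differed in how far pups of the same litter and genotype lay apart. The spread left after litter and genotype, as the SD of log2 CPM (counts scaled by each library's total and its TMM factor), was 0.402 for *Egr1*, 0.385 for *Fosb* and 0.363 for *Fos* in the PWS-cr series, against a median of 0.151 over all 22172 genes tested. Of all genes, 13.5%, 15.0% and 17.2% varied more than these members. Counting error alone would give 0.0524 for *Egr1*, 0.203 for *Fosb* and 0.112 for *Fos*.

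*Nr4a1* (0.0941) and *Btg2* (0.103) lay below the all-gene median, and *Npas4* (0.153) at it. In the PWS-IC series without 1_3_IC and 1_7_IC, *Fosb* (0.481), *Fos* (0.388) and *Egr1* (0.352) were again above the all-gene median of 0.147. In that set *Nr4a1* (0.0684) and *Arc* (0.106) were below it, where counting error alone would give 0.0553 and 0.101. *Arc*, whose mRNA moves to active synapses, had a spread of 0.258 in the PWS-cr series. With all 9 libraries, the spread of *Arc* was 0.329 and that of *Btg2* 0.333 rather than 0.133, and the all-gene median was 0.239.

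**Figure D2:**
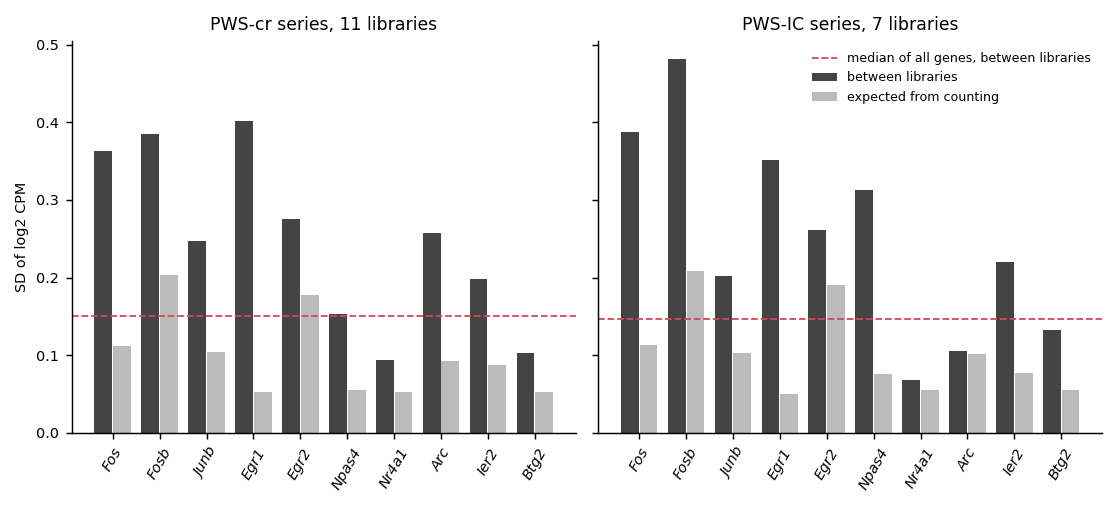
SD of log2 CPM between libraries after litter and genotype were fitted (dark bars) beside the SD expected from counting error alone (light bars), with the all-gene median of the former as a dashed line. The PWS-IC panel leaves out 1_3_IC and 1_7_IC. *Egr1*, *Fosb* and *Fos* stand above that line in both panels, and *Nr4a1* and *Btg2* below it, although *Btg2* is above it with all 9 libraries of the PWS-IC series (0.333 against 0.239).

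The comparison of PWS-cr pups with wild-type littermates asked whether loss of the critical interval alters these genes at birth. None of the 10 members was called (edgeR quasi-likelihood test with litter and genotype, Benjamini-Hochberg adjusted p under 0.05), where 0.0135% of all genes were called (3 of 22172). DESeq2 also called 0 members. The estimate was above 0 for 8 members, with a median of 0.17 on the log2 scale against 0.00 over all genes, and 1 member had an unadjusted p under 0.05, as did 2.07% of all genes.

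That member was *Nr4a1*. Its wild-type libraries held 12.9, 13.5, 13.7, 14.3 and 14.6 CPM, and the 6 PWS-cr libraries ran from 13.4 to 17.9 with a median of 14.2. The groups overlapped, and 4_3_Cr and 1_1_Cr were the highest PWS-cr libraries, at 17.9 and 16 CPM. The log2 difference was 0.16 (SE 0.0687, adjusted p = 1 in edgeR), and the PWS-cr mean was higher in 3 of 3 litters that held both genotypes. Without 4_3_Cr the difference was 0.08.

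*Fos* held 2.12, 2.78, 2.87, 3.96 and 4.20 CPM in wild-type pups and 2.69 to 4.48, with a median of 3.18, in PWS-cr pups. Both groups spanned nearly the same range, and the log2 difference was 0.20 with a 95% confidence interval of -0.27 to 0.67. For *Egr1*, which responds to growth factor and synaptic signals, wild-type pups held 10.8, 12.6, 15.4, 16.7 and 17.6 CPM and PWS-cr pups 10.7 to 22.4, with a median of 15.9. The difference was 0.24 (-0.23 to 0.71).

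The intervals set how large a change the 11 libraries could still hide. They were narrowest for *Npas4* (-0.05, from -0.25 to 0.16), *Btg2* (-0.05, from -0.21 to 0.11) and *Nr4a1*, and widest for *Fosb* (0.25, from -0.26 to 0.76). For *Egr2*, an EGR factor also needed for myelination in peripheral nerve, the estimate was 0.27 (-0.13 to 0.68). *Arc* (0.17), *Ier2* (0.15) and *Junb* (0.04), the JUN partner of FOS, lay between -0.29 and 0.51 with their intervals. No member had groups that did not overlap, where 0.171% of all genes did.

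A few pups supplied the extremes. The PWS-cr pup 4_3_Cr was highest of the 11 libraries in *Fos*, *Egr2*, *Arc* and *Nr4a1* and above the series median for all 10 members. The PWS-cr pup 1_1_Cr was highest in *Fosb*, *Junb*, *Egr1* and *Ier2* and lowest in *Btg2*. A PWS-cr littermate of the latter, 1_5_Cr, was lowest in *Fosb*, *Egr1*, *Egr2* and *Arc*, so that both ends of the *Egr1* range, 22.4 and 10.7 CPM, came from mutant pups of the same litter.

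Markers of other tissue also varied between these libraries. The 10 markers of meninges and fibroblasts summed to 287 to 692 CPM in wild-type and 389 to 827 CPM in PWS-cr pups, with 9 of 10 higher in PWS-cr by estimate and none called. The 8 markers of caudal hindbrain and spinal cord summed to 0.832 to 28.9 and 0.349 to 88.1 CPM. Of these, 7 were higher in PWS-cr by estimate (median 2.52) and none was called. An unadjusted p under 0.05 was held by 3 of them, as by 2.07% of all genes. The 4 highest sums of this list came from 3_5_Cr, 1_5_Cr, 4_3_Cr and a wild-type pup. The part of either list in the members' values was not tested.

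In the PWS-IC series as labelled, no member was called (edgeR), where 0% of all genes were called (0 of 22367, with 1840 at an unadjusted p under 0.05 and 1 called by DESeq2). DESeq2 called 0 members. The estimate was above 0 for 7 members with a median of 0.17, against 0.00 over all genes. *Ier2* was the only member with an unadjusted p under 0.05, at a log2 difference of 0.46 (SE 0.181, adjusted p = 0.565 in edgeR). Its PWS-IC libraries held 5.71, 6.21, 9.47 and 13.1 CPM and its wild-type libraries 5.67, 5.96, 6.34, 6.4 and 6.47. The 13.1 belongs to 1_3_IC, the 9.47 to 1_10_IC, and the other 2 PWS-IC pups lay within the wild-type range. No member had groups that did not overlap, where 2.29% of all genes did.

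Without 1_3_IC and 1_7_IC, again no member was called, where 0.242% of all genes were called (53 of 21913). The members with an unadjusted p under 0.05 were then *Arc*, *Btg2* and *Nr4a1*, where 12.8% of all genes had one. These were also the 3 members whose groups did not overlap, against 10.3% of all genes.

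*Arc* held 2.61, 3.22 and 3.24 CPM in the PWS-IC pups and 4.02, 4.11, 4.62 and 4.63 in wild-type pups. Every PWS-IC pup lay below every wild-type pup, in litter 1 as in litter 4, with within-litter log2 differences of -0.51 and -0.48. The fitted difference was -0.49 (SE 0.125, 95% confidence interval -0.76 to -0.21), and the adjusted p was 0.213 in edgeR. As labelled, 1_3_IC held 6.09 CPM, the most of the 9 libraries, and 1_7_IC 3.81, the least of those labelled wild type, and the difference was -0.16 (-0.61 to 0.29).

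*Btg2* held 8.87, 12 and 12.2 CPM in PWS-IC pups and 13.2, 13.7, 14 and 14.2 in wild-type pups, with no overlap. The log2 difference was -0.36 (SE 0.101, adjusted p = 0.246), made of -0.61 in litter 1, where the lowest library 1_10_IC sat, and -0.21 in litter 4. *Nr4a1* went the other way, with 13, 13.7 and 13.8 CPM against 10.7, 11.3, 11.8 and 11.9. Its difference was 0.25 (SE 0.0836, adjusted p = 0.299), and 0.30 and 0.20 within the litters. None of these differences passed the test over all genes.

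**Figure D3:**
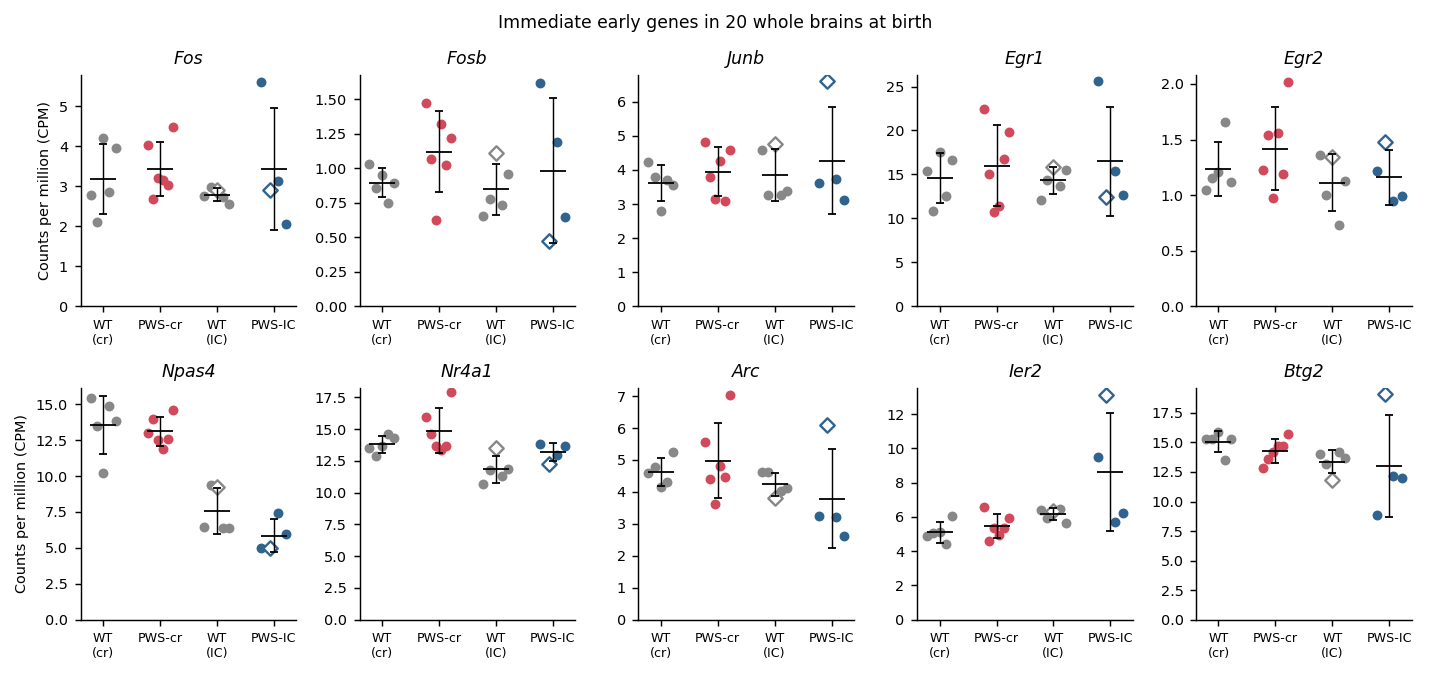
CPM of each gene in every library, by group (WT, wild-type littermates of the PWS-cr or the PWS-IC series), with the mean and SD as black marks over all libraries as labelled. Open diamonds are 1_3_IC (PWS-IC) and 1_7_IC (WT). Without them, PWS-IC points of *Arc* and *Btg2* lie below and those of *Nr4a1* above the wild-type points. The PWS-IC library 1_10_IC then stands highest of its series in *Fos*, *Fosb*, *Egr1*, *Ier2* and, narrowly, *Nr4a1*.

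The FOS family and *Egr1* in the PWS-IC series turned on the pup 1_10_IC. *Fos* held 5.61 CPM there, 2.06 and 3.14 in the PWS-IC pups 4_5_IC and 4_4_IC, and 2.56, 2.74, 2.77 and 2.99 in wild-type pups. The log2 difference without the 2 doubtful libraries was 0.40 (-0.07 to 0.87), and without 1_10_IC as well it was -0.04 (-0.51 to 0.44). *Egr1* held 25.6 CPM in 1_10_IC, against 12.7 and 15.4 in the other PWS-IC pups and 12.1 to 15.5 in wild-type pups. Its difference went from 0.37 (-0.02 to 0.76) to -0.05 (-0.33 to 0.22).

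For *Fosb* the same step moved the difference from 0.57 (-0.04 to 1.19) to 0.11 (-0.60 to 0.81), with 1.62 CPM in 1_10_IC, 0.644 and 1.19 in the other PWS-IC pups and 0.654 to 0.958 in wild-type pups. *Arc* kept its direction without 1_10_IC, at -0.48 (-0.83 to -0.14, adjusted p = 0.448 in edgeR), as did *Btg2* at -0.21 (adjusted p = 0.527). Leaving out 1_10_IC was chosen after the values were seen. Without the 2 libraries, the 7 red-cell genes of PWS-IC pups were higher by estimate in 7 of 7 cases, with *Hbb-bt* called (1.08, adjusted p = 0.0365), and they summed to 653 CPM in 1_10_IC, 451 and 580 in the other PWS-IC pups and 137 to 330 in wild-type pups other than 1_7_IC, and the part of blood in these values was not tested. Other marker lists also moved in that set, with none of their genes called: 1 of 8 choroid plexus markers was above 0 by estimate (median -0.23), 1 of 10 meningeal (-0.13) and 2 of 10 microglial ones (-0.12). Their part in the lower *Arc* and *Btg2* was not tested.

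**Figure D4:**
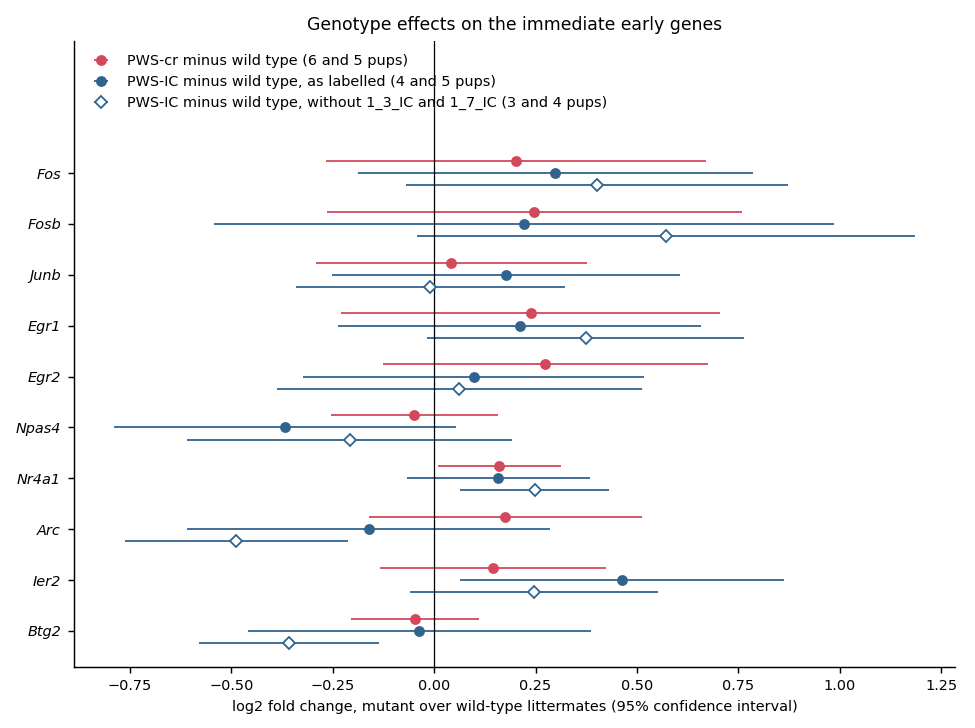
Log2 fold change of each gene in mutant over wild-type pups with its 95% confidence interval, in the PWS-cr series (red), in the PWS-IC series as labelled (filled blue) and without 1_3_IC and 1_7_IC (open blue). Intervals that leave out 0 are those of *Nr4a1* in the PWS-cr series, *Ier2* in the PWS-IC series as labelled, and *Arc*, *Btg2* and *Nr4a1* without the 2 libraries, and none of these passed adjustment over all genes.

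Whether the genotype effect differed between PWS-IC and PWS-cr was tested on all 20 libraries together. No member was called as labelled, where 0% of all genes were called (edgeR, 0 of 23771, with 1124 at an unadjusted p under 0.05 and 3 called by DESeq2). Without 1_3_IC and 1_7_IC no member was called either, where 0.182% of all genes were called (43 of 23574). *Arc* then had the largest gap of the 10, at -0.66 (PWS-IC minus PWS-cr, SE 0.21, adjusted p = 0.481), and that of *Btg2* was -0.31 (adjusted p = 0.554). These were also the 2 members with an unadjusted p under 0.05, as had 8.16% of all genes. For *Nr4a1* the gap was 0.09 (-0.13 to 0.31).

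Litter was the other grouping of the pups. In the PWS-cr series no member was called by litter, where 0.0226% of all genes were called (5 of 22172), and none had an unadjusted p under 0.05. In the PWS-IC series as labelled no member was called, where 0.0402% of all genes were called (9 of 22367), and every member's estimate was lower in litter 4 than in litter 1, with a median of -0.27. *Junb* was at -0.45, *Egr2* at -0.44 and *Ier2* at -0.43, each with an unadjusted p under 0.05, as had 18.6% of all genes, and an adjusted p of 0.263 in edgeR. Cell type markers moved too: 0 of 10 endothelial markers were above 0 (median -0.19), 0 of 10 microglial (-0.36), 0 of 8 choroid plexus (-0.25) and 1 of 10 meningeal ones (-0.22), while those of the olfactory bulb and forebrain tip went the other way (0.34). None of these markers was called, and their part in the members' values was not tested.

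The largest values of litter 1 came from libraries already described. *Junb* held 6.60 CPM in 1_3_IC and 4.76 in 1_7_IC against 3.13 to 3.73 in litter 4, while the other 3 pups of litter 1 held 3.25, 3.63 and 4.59. Without 1_3_IC and 1_7_IC, 8 members were lower in litter 4, *Fos* alone had an unadjusted p under 0.05 (-0.54, adjusted p = 0.144), as had 26.2% of all genes, and no member was called, where 2.56% of all genes were called (561 of 21913). For *Junb* the difference was then -0.18. As labelled, the difference in *Fos* was -0.39 with all 9 libraries and -0.16 without 1_10_IC. The litter fit without 1_3_IC and 1_7_IC was not rerun without 1_10_IC.

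Whether the members went up and down together from pup to pup was examined next. Each gene was therefore fitted on the log2 level of *Fos* over all 20 libraries, with the litters and genotypes in the model. The adjustment also took in *Fos* fitted on its own level, so adjusted p-values of other genes can be lower than without it. *Fos* is left out of the counts. No gene was called (edgeR, 0% of 23770 genes, 1365 at an unadjusted p under 0.05), and without 1_3_IC and 1_7_IC the share was again 0% (0 of 23573, 2033 unadjusted). DESeq2 called 11 genes, and *Egr1* was the only member among them.

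*Egr1* had a slope of 0.85 (SE 0.163, adjusted p = 0.438 in edgeR and adjusted p = 0.00539 in DESeq2), in log2 units of *Egr1* per log2 unit of *Fos*. The slope was 0.81 in the PWS-cr series alone and 0.88 in the PWS-IC series alone, and it was 0.74 without 1_3_IC, 1_7_IC and 1_10_IC. Leaving out each library in turn gave 0.74 to 0.95, and edgeR called *Egr1* without 1_5_Cr (adjusted p = 0.02), a PWS-cr pup with 3.20 CPM of *Fos* but the least *Egr1* of its series. *Fosb* followed with 0.89 (SE 0.302, adjusted p = 0.775), at 0.44 in the PWS-cr series alone and 1.36 in the PWS-IC series alone. It was the other of 2 members with an unadjusted p under 0.05.

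The other 7 members did not go with *Fos* by a slope that the test could tell from 0. *Npas4* (-0.25), *Btg2* (-0.24), *Junb* (-0.23), *Egr2* (-0.18) and *Arc* (-0.04) had slopes below 0, and *Ier2* (0.17) and *Nr4a1* (0.09) above. The intervals for *Nr4a1* (-0.12 to 0.30) and *Npas4* (-0.62 to 0.13) end below 0.50, where the interval of *Egr1* begins. Without 1_3_IC and 1_7_IC the slopes of *Btg2* and *Arc* were -0.06 and 0.17. The pup 1_10_IC held the most *Fos*, *Fosb*, *Egr1* and, narrowly, *Nr4a1* of its series, and the most *Ier2* (9.47 CPM) after 1_3_IC. In 1_10_IC *Btg2* was lowest at 8.87 CPM, and *Npas4* stood at 4.99 CPM, level with the lowest library, 1_3_IC. Without the 2 doubtful libraries *Ier2* also had an unadjusted p under 0.05, at 0.37 (adjusted p = 0.491 in edgeR).

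**Figure D5:**
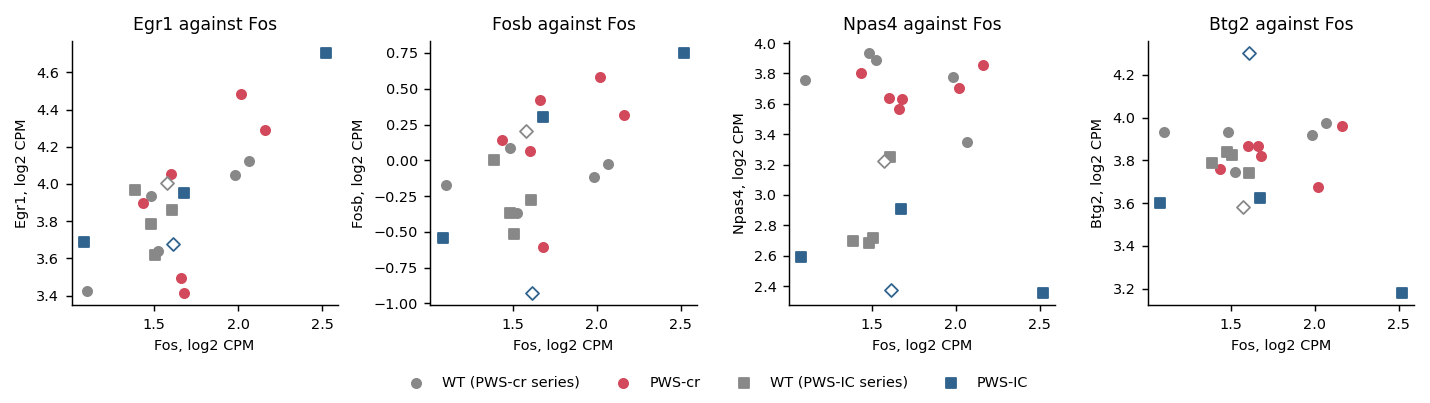
Log2 CPM of *Egr1*, *Fosb*, *Npas4* and *Btg2* against log2 CPM of *Fos*, 1 point per library over both series (circles, PWS-cr series; squares, PWS-IC series; open diamonds, 1_3_IC in blue and 1_7_IC in grey). *Egr1* and *Fosb* have slopes above 0 in both series (0.81 and 0.88 for *Egr1*), and *Npas4* separates the series.

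Among other genes the smallest p for a positive slope was that of *Arrdc3* (0.95, adjusted p = 0.189), followed among protein-coding genes by *Txnip* (1.48, adjusted p = 0.511), both of which encode alpha-arrestins. None was called in edgeR, and these names were chosen after their values were seen. Of the 10 meningeal and fibroblast markers, 10 had a positive slope on *Fos*, with a median of 0.32. Of these, 3 had an unadjusted p under 0.05, as had 5.74% of all genes. Slopes were also positive for 10 of 10 muscle and cartilage, 8 of 10 endothelial, 8 of 8 pericyte, 7 of 8 Schwann and 7 of 8 caudal hindbrain markers (median 0.83). For microglial (4 of 10), neuronal (5 of 10), red-cell (3 of 7) and olfactory bulb markers (3 of 8) they were mixed. Without 1_3_IC and 1_7_IC the meningeal values were 10, 0.47 and 8, where 8.62% of all genes had an unadjusted p under 0.05. In that set slopes were positive for 9 of 10 microglial and 10 of 10 endothelial markers. They were positive for 3 of 10 neuronal, 5 of 7 red-cell and 4 of 8 olfactory bulb markers. The part of adhering membrane or other tissue in the *Fos* level was not tested. In whole brain more cells of a type and more RNA per cell cannot be told apart.

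*Npas4* was the member that separated the 2 series. Scaled over both together, it held 10.1 to 15.3 CPM in the wild-type pups of the PWS-cr series and 6.38 to 9.48 in those of the PWS-IC series, with no overlap. The log2 difference, PWS-IC series minus PWS-cr series, was -0.83 (SE 0.141, adjusted p = 0.000837 in edgeR), and -0.91 without 1_7_IC (adjusted p = 0.000686). *Ier2* was higher in the PWS-IC series by 0.29 (adjusted p = 0.0354 in edgeR). That call was lost without 1_7_IC (adjusted p = 0.0633) and with labelled sex in the model (adjusted p = 0.0511). *Nr4a1* differed by -0.21 (adjusted p = 0.0564 in edgeR). It was called without 1_7_IC (adjusted p = 0.0161), with labelled sex in the model (adjusted p = 0.044) and in DESeq2 (adjusted p = 0.0351). The labelled sex counts 1_7_IC as male, against its transcripts.

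In all, 2 of 10 members were called, beside 23.1% of all genes (5228 of 22613), a share near the background. This comparison was added after the values were seen. Its fit had no litter term, so its SEs and p-values, and the share of all genes called, treat pups as independent although some were littermates. Colony, litter and series cannot be told apart in this comparison. Mutant pups showed the same order for *Npas4*, with 11.8 to 14.4 CPM in PWS-cr and 5.07 to 7.48 in PWS-IC pups.

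The wider pathway was examined through lists of named genes. Of 38 other immediate early genes, 36 were tested, and 0 were called in the PWS-cr series and 0 in the PWS-IC series with or without the 2 libraries. The smallest p in the PWS-cr series was that of *Atf3*, a stress-induced AP-1 partner, at 0.65 (SE 0.222, adjusted p = 1 in edgeR), and *Sertad1* followed at 0.31. These were the only 2 of the 36 with an unadjusted p under 0.05. Without the 2 libraries, *Maff* was at 0.74 (adjusted p = 0.191) and *Egr3*, a further EGR factor, at -0.45 (adjusted p = 0.228). The median over the 36 was then 0.06, with 19 above 0 and 7 at an unadjusted p under 0.05, against 12.8% of all genes. As labelled the median was 0.18, with 29 above 0 and 9 at an unadjusted p under 0.05, against 8.23% of all genes.

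Neither the kinases and factors upstream (22 of 24 tested), nor the 12 AP-1 partners, nor the 14 late genes that these factors induce, nor the 11 heat-shock genes had a member called by genotype in either model. Without the 2 libraries the smallest p upstream was that of *Elk4*, a partner of serum response factor, at 0.36 (adjusted p = 0.156), and among late genes that of *Nrn1* at -0.37 (adjusted p = 0.204). By litter, *Jun*, *Mmp9*, *Mapk3*, *Crebbp*, *Hspa1b*, *Hsph1* and *Hspa8* were called in that set, in which 2.56% of all genes were called. All but the coactivator *Crebbp* were lower in litter 4, with *Jun* at -0.44 (adjusted p = 0.0489) and *Hspa1b* at -0.70 (adjusted p = 0.0417). In the same fit 1 of 10 endothelial, 1 of 10 microglial and 0 of 10 meningeal markers were above 0 by estimate, with the endothelial *Kdr* called (-0.36, adjusted p = 0.0499). The red-cell, progenitor, Schwann and olfactory bulb lists each held 1 gene called higher in litter 4, and 6 of 8 olfactory bulb markers were above 0 (median 0.29). The part of these tissues in the values above was not tested.

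Hormone and oxygen responses were read from further lists. Of 13 glucocorticoid-responsive genes, 13 were higher by estimate in PWS-IC pups without the 2 libraries, with a median of 0.35 (0.00 over all genes) and 11 at an unadjusted p under 0.05, and 1 was called, the clock gene *Per1* (0.62, SE 0.0904, adjusted p = 0.0175 in edgeR). Of all genes in that fit, 0.242% were called and 12.8% had an unadjusted p under 0.05. As labelled, 13 of 13 were above 0 with a median of 0.24, 6 had an unadjusted p under 0.05 and 0 were called. In the PWS-cr series 6 of 13 were higher, with 0 called. Among 15 hypoxia-responsive genes the glucose transporter gene *Slc2a1* was called in PWS-IC pups without the 2 libraries (0.54, adjusted p = 0.033 in edgeR). Of the 15, 10 were higher, with a median of 0.07, and 3 had an unadjusted p under 0.05. In that fit 7 of 10 endothelial and 7 of 7 red-cell markers were also higher by estimate, and their part in these values was not tested. *Per1* also differed between the 2 genotype effects (0.66, adjusted p = 0.0188). None of these genes was called with 1_3_IC and 1_7_IC as labelled.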

How the data were processed

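Polyadenylated RNA of newborn brains was sequenced in pairs without strand. The authors used STAR with mm10 and then featureCounts, set 1 library of each series aside, and deposited raw counts for each gene. They also deposited TPM, which scale by gene length and depth, and these were used only to compare levels between genes. Size-factor-scaled counts, FPKM and the authors' fold changes and p-values were not used. Of 22 labelled libraries, 20 were analysed here.

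Genes that reached 10 counts in 4 or more libraries entered a quasi-likelihood test on counts with litter and genotype as terms and TMM scaling (edgeR 4.0.16 under R 4.3.3). A gene was called where its p, adjusted by Benjamini and Hochberg's method over all genes, was under 0.05. Standard errors are the effect divided by the square root of F. Residual SDs came from limma 3.58.1. DESeq2 1.42.0, RLE scaling, other filters, the labelled sex as a term and leaving out each library were alternatives. The scripts were tested on simulated counts. The labels do not name the litter: it was inferred from the leading number of each title, which gives 4 and 2 litters, as many as the study's methods state. Every fit with litter rests on this reading. The fit on wild-type pups of both series had series as its term, without litter or genotype. P-values measure the spread between single pups.

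The members and lists were chosen with earlier results of these data known. All members were named, and from each list the called genes or those with the smallest p. Promoter sequences are from RefSeq (GRCm38.p6). *Snrpn*, *Eif2s3y* and *Xist* served to check labels.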

Additional observations from a re-analysis of the deposited data

Results flagged for a closer look

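In 40 gene and group combinations, chance alone would mark about 1 in 20 as holding a library far from its group by Dixon's ratio, and 2 were marked, both in the wild-type pup 4_1_Cr of the PWS-cr series. *Egr2* held 1.66 CPM there against 1.05 to 1.21 in the other 4 wild-type pups (ratio 0.738, limit 0.71). *Btg2* held 13.5 CPM against 15.3 to 15.9 (ratio 0.75). The PWS-IC library 1_10_IC, which stands apart in *Fos* and *Egr1*, did not pass the limit for a group of 4.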

How the results depend on the processing

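No member was called by genotype, by litter or by the difference of genotype effects under any alternative run. As tracking *Fos*, 1 member (*Egr1*) was called in DESeq2, and leaving out each library gave 0 to 1 called members, the 1 without 1_5_Cr. Of 623 single-gene values recomputed, 592 kept direction and call, 24 changed sign, 5 gained and 2 lost a call. The causes were not tested.

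Leaving out 1 library at a time, the PWS-cr genotype effect ran from -0.109 to 0.128 for *Junb*, -0.022 to 0.283 for *Arc*, -0.107 to 0.047 for *Npas4* and -0.142 to 0.020 for *Btg2*. In the PWS-IC series it ran from -0.231 to 0.496 for *Fosb*, -0.057 to 0.337 for *Junb*, -0.096 to 0.365 for *Egr1* and -0.344 to 0.152 for *Btg2*, and the difference of effects for *Btg2* from -0.298 to 0.198. With labelled sex in the model, *Egr2* in the PWS-IC series was at -0.044 and the difference for *Btg2* at -0.067. The labelled sex counts 1_3_IC as female and 1_7_IC as male, against their transcripts. Without 1_3_IC and 1_7_IC, *Junb* was at -0.0096 and the difference for *Btg2* at -0.31. Without 1_10_IC too, *Fos* was at -0.035, *Egr1* at -0.055, *Npas4* at 0.068 and *Ier2* at -0.025. The slope of *Ier2* on *Fos* was -0.018 in the PWS-IC series alone. Fits without 1_10_IC, those on wild-type pups alone, and the slope in the PWS-IC series without 1_3_IC and 1_7_IC were added after seeing the data.

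Counts over all genes moved more: for litter in the PWS-IC series 9 became 152 in DESeq2, 2334 with no filter, 3 with 10 counts in every library and 561 without the 2 libraries. For litter in the PWS-cr series 5 became 73 in DESeq2, 102 with no filter, 9 with the robust option and 8 without genotype. Leaving out 1 library at a time gave 1 to 13 for litter in the PWS-IC series (1 without 4_3_IC, 4_4_IC or 4_6_IC, most without 1_3_IC), 1 to 7 in the PWS-cr series (fewest without 2_2_Cr, most without 1_5_Cr), and 0 to 1, 2 to 4 and 0 to 2 for genotype in the PWS-IC series, genotype in the PWS-cr series and their difference. Genotype calls went from 3 to 7 in DESeq2 and 10 with no filter (PWS-cr), and from 0 to 1 and 471 (PWS-IC), and those of the difference from 0 to 3 and 87. Genes tracking *Fos* went from 0 to 11 in DESeq2 and 1 with no filter, with sex, without litter or with *Egr1* in place of *Fos*. No paired analysis was possible because replicate numbers only name pups. Litters already enter each main fit except that on wild-type pups alone. With counts of 22 to 86 per library in the PWS-IC series, *Fosb* had the largest counting SD of the members (0.218 on the log2 scale). Counting made up more of the spread for *Egr2* (0.186 of 0.236), both over all 9 libraries. Without 1_3_IC and 1_7_IC, the counting SD of *Arc* was 0.101 beside a spread of 0.106.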
